A study of Mus musculus with 46 samples.

Results

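The genes described here are 41 interferon-stimulated genes of the mouse, a module given by symbol: Irf7, Irf9, Stat2 and Usp18, Isg15 with 5 genes of ubiquitin or ADP-ribose transfer, 4 Ifit genes, 4 genes of the oligoadenylate synthetase family with Eif2ak2, 3 nucleic acid binders, 5 genes of membrane, GTPase or nucleotide function, 3 Schlafen genes with Samd9l, and 10 further inducible genes. All 41 had a row in the count table of 54134 genes. A filter on low counts kept 12121 genes for testing, 40 of the 41 among them. The gene left out was Ifi44, which ranged from 0 to 3.60 CPM (a gene's read count scaled to the size of its library) across libraries. The rule lists the members by symbol, but the list was chosen with earlier results of these data known.

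The study profiled RNA of microglia, the resident macrophages of the brain, from mice of 2 genotypes on 3 diets. Of its 46 libraries, 22 came from WT mice and 24 from mice labelled AD, which the series describes as 5xFAD. That line carries human amyloid precursor protein and presenilin transgenes with familial Alzheimer mutations, driven by the Thy1 promoter in neurons and not in microglia. The diets are labelled zero fiber, Control and HAMSAB, the last being a resistant starch from high-amylose maize that carries acetate and butyrate. Each diet and genotype had 8 libraries, 4 labelled F and 4 labelled M, except WT on zero fiber with 6, of which 2 were labelled M. All groups share the cell type label. Strain background, age, time on diet, makeup of the control diet and cell isolation were not found in the labels. Whether 2 libraries ever share a mouse is not stated either, and the p-values therefore speak only of library-to-library spread, which may be technical. The design asks how diet and genotype bear on microglial RNA.

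Type I interferons bind the receptor Ifnar1 and Ifnar2, whose kinases Jak1 and Tyk2 act on Stat2. Stat2 and Irf9 are parts of ISGF3, a factor that binds the interferon-stimulated response element in the promoters of responsive genes. Irf7, itself induced, drives further interferon transcription, while Usp18 and Isg15 act in feedback and in protein modification. Microglia are known to hold a low basal level of this program and to raise it in infection, in injury and near amyloid.

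The response element is a repeat of GAAA units, so the letters GAAA, 2 bases of any kind and GAAA again were sought on both strands of RefSeq promoter windows on GRCm38.p6, each 300 bases long, 250 before and 50 from the gene's start. Such a window was held for 32 of the 41 members. The motif was in the windows of 15 of the 32 members (46.9%), against 1079 of 27025 genes (3.99%). At least 2 matches stood in 7 of the 32 members (21.9%), against 0.266% of all genes. The letters TTCNNNGAA, the shorter core of the gamma-activated site, were in 6 of the 32 members (18.8%), against 9.55% of all genes. A match describes letters in the window and not a bound site. The 6 windows printed here are those of 5 members with a match and of Slfn2, the member with the smallest p between diets, which has none. Each is given 5' to 3' on the gene's strand, and capitals mark the matches, which read as a pair of GAAA or, on the reverse strand, of TTTC.
Isg15: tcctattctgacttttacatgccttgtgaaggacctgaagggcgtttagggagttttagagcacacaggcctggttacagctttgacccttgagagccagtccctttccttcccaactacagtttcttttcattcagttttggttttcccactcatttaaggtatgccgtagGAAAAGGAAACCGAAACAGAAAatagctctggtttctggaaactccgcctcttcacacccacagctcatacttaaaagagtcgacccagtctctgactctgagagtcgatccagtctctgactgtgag
Ifit3: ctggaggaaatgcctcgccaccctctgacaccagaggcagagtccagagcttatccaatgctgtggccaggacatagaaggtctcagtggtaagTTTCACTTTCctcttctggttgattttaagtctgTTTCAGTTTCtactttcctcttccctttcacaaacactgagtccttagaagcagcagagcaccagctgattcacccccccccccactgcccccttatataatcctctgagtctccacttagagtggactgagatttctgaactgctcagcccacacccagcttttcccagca
Ifit3b: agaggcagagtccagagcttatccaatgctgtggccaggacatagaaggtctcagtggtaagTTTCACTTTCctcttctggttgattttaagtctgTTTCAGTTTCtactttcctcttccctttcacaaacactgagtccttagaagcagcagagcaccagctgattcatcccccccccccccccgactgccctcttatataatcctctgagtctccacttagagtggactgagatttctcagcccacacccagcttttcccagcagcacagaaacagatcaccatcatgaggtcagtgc
Phf11b: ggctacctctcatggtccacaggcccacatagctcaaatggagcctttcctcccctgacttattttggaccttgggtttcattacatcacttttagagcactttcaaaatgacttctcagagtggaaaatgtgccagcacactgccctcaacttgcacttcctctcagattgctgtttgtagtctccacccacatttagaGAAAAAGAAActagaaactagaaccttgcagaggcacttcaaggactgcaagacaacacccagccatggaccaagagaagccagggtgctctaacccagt
Ifitm3: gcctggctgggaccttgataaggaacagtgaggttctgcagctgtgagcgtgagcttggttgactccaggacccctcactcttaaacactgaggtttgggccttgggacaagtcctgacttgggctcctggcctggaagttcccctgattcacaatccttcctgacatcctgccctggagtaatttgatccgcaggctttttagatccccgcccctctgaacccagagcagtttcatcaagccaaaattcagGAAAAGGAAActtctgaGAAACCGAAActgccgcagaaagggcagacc
Slfn2: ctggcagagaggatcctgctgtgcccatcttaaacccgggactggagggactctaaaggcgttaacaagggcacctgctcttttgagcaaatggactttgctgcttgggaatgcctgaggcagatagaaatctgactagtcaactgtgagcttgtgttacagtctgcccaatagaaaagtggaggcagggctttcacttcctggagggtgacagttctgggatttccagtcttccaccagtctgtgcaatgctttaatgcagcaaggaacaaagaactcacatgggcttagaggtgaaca

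In Isg15 (chr4:156200769-156201068, minus strand) 3 overlapping matches begin 78, 72 and 66 bases before the start and make 1 unbroken run of capitals. Ifit3 (chr19:34583279-34583578, plus strand) and Ifit3b (chr19:34607707-34608006, plus strand) hold 2 matches each, on the reverse strand. The 2 windows were set against each other with no gaps and a shift of 32 bases, which lays the pairs of matches over each other. They were then identical at 201 of 268 bases (75.0%). A run of c differs in length between the windows, so the bases after it were compared out of step, which lowers this share. Phf11b (chr14:59341281-59341580, minus strand) has 1 match 50 bases before the start. The 2 matches of Ifitm3 (chr7:141010695-141010994, minus strand) lie just after its start, at bases 2 and 19. The window of Slfn2 is chr11:83064862-83065161, plus strand.

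Library totals ran from 52114 to 6950429 reads with a median of 2344838, and the second lowest total was 783849. The members together took 84 to 16944 reads per library. The library of 52114 reads was zero fiber AD M replicate 2, whose 0 CPM is the low end of the zero fiber AD ranges given for Irf7 and Ifit3. The library labelled zero fiber AD F replicate 1 had 0.213 CPM of Xist and 279 CPM of Y-linked genes, which goes against its label. The other 23 libraries labelled F had at least 654 CPM of Xist. Zero fiber AD F replicate 2 also had 39.2 CPM of Y-linked genes, where the remaining 22 had at most 8.33. The 2 libraries called doubted from here on are zero fiber AD M replicate 2 and zero fiber AD F replicate 1. Several results are also given without this pair, while zero fiber AD F replicate 2 was kept in them.

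Per kilobase of exon, the most abundant members were Bst2, which tethers budding virus to the cell surface, at 108 CPM per kilobase averaged over the 46 libraries, and Lgals3bp, a secreted glycoprotein that binds galectins, also at 108. Ifitm3, a membrane protein that blocks viral fusion, followed at 76.4, the growth-regulating Schlafen gene Slfn2 at 56.8 and Trim30a at 51. At the low end stood Oas2 at 0.505 and Ifi44 at 0.130. The most and the least abundant members of this order thus lay far apart. The spread between libraries of 1 group was wide for most members. The median biological coefficient of variation, the relative spread left after counting noise, was 0.306 over the 40 tested members and 0.171 over all 12121 genes. Of the members, 35 (87.5%) lay above the trend for their level, against 33.4% of all genes. The lowest was Irf9 at 0.129 and the highest Oas1a, an oligoadenylate synthetase, at 0.534.

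A score per library, the mean log2 CPM of the 40 tested members, describes the module. On zero fiber it ran from 4.05 to 4.48 in WT (median 4.18, n = 6) and from 2.61 to 4.50 in AD (median 4.01, n = 8). Without the 2 doubted libraries the AD range was 3.67 to 4.48 (n = 6). On the control diet it ran from 3.76 to 5.69 in WT (median 4.47, n = 8) and from 3.91 to 4.64 in AD (median 4.44, n = 8). HAMSAB libraries ran from 4.31 to 5.49 in WT (median 4.74, n = 8) and from 4.09 to 5.48 in AD (median 4.83, n = 8). In both genotypes the medians stood in the order zero fiber, control, HAMSAB, and all neighbouring ranges overlapped.

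**Figure D1:**
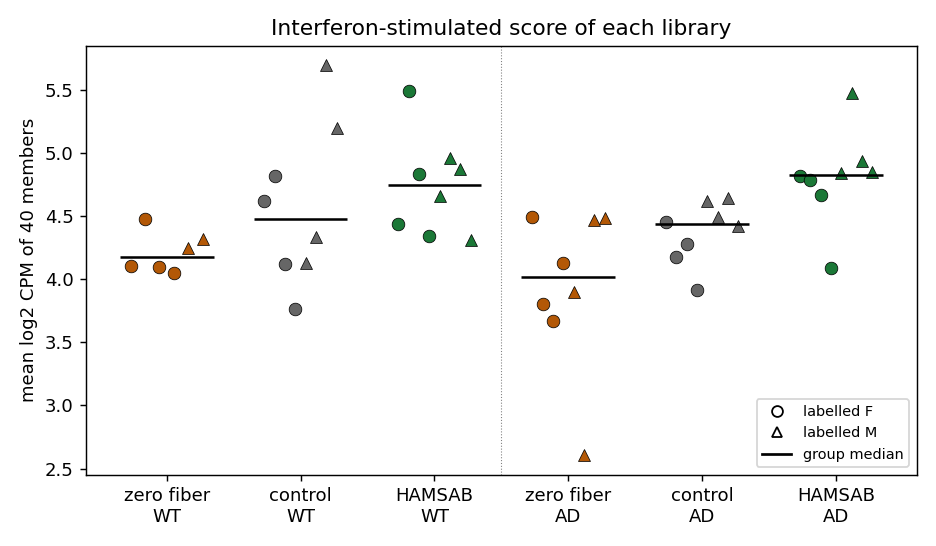
Mean log2 CPM of the 40 tested members (vertical axis) in each of the 46 libraries by diet and genotype, with circles for libraries labelled F, triangles for M and bars at the group medians. The medians climb from zero fiber to HAMSAB in both genotypes, with single high libraries on control WT (5.69), HAMSAB WT (5.49) and HAMSAB AD (5.48), and the lowest point is the library of 52114 reads (2.61).

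The question of diet was first taken as HAMSAB against zero fiber. Averaged over the 2 genotypes, 14 of the 40 tested members rose on HAMSAB and none fell by edgeR's quasi-likelihood test (adjusted p under 0.05 over all 12121 genes), against 1.02% of all genes called in either direction. Estimates were above 0 for 39 of the 40 members, against 52.3% of all genes, and the median log2 fold change was 0.70, against 0.01 over all genes. The members were chosen with earlier results of these data known, so these shares are a description and no independent test. The called members were Slfn2, Lgals3bp, Rtp4, Phf11b, Ifit3b, Sp100, Ifit3, Ifi27l2a, Irf9, Ifitm3, Irf7, Usp18, Cmpk2 and Oasl2. Without the 2 doubted libraries the same 14 and Zbp1 were called. DESeq2 called those 15 and limma voom 14, of which 13 were shared. Without zero fiber WT M replicate 2, 9 members were called.

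**Figure D2:**
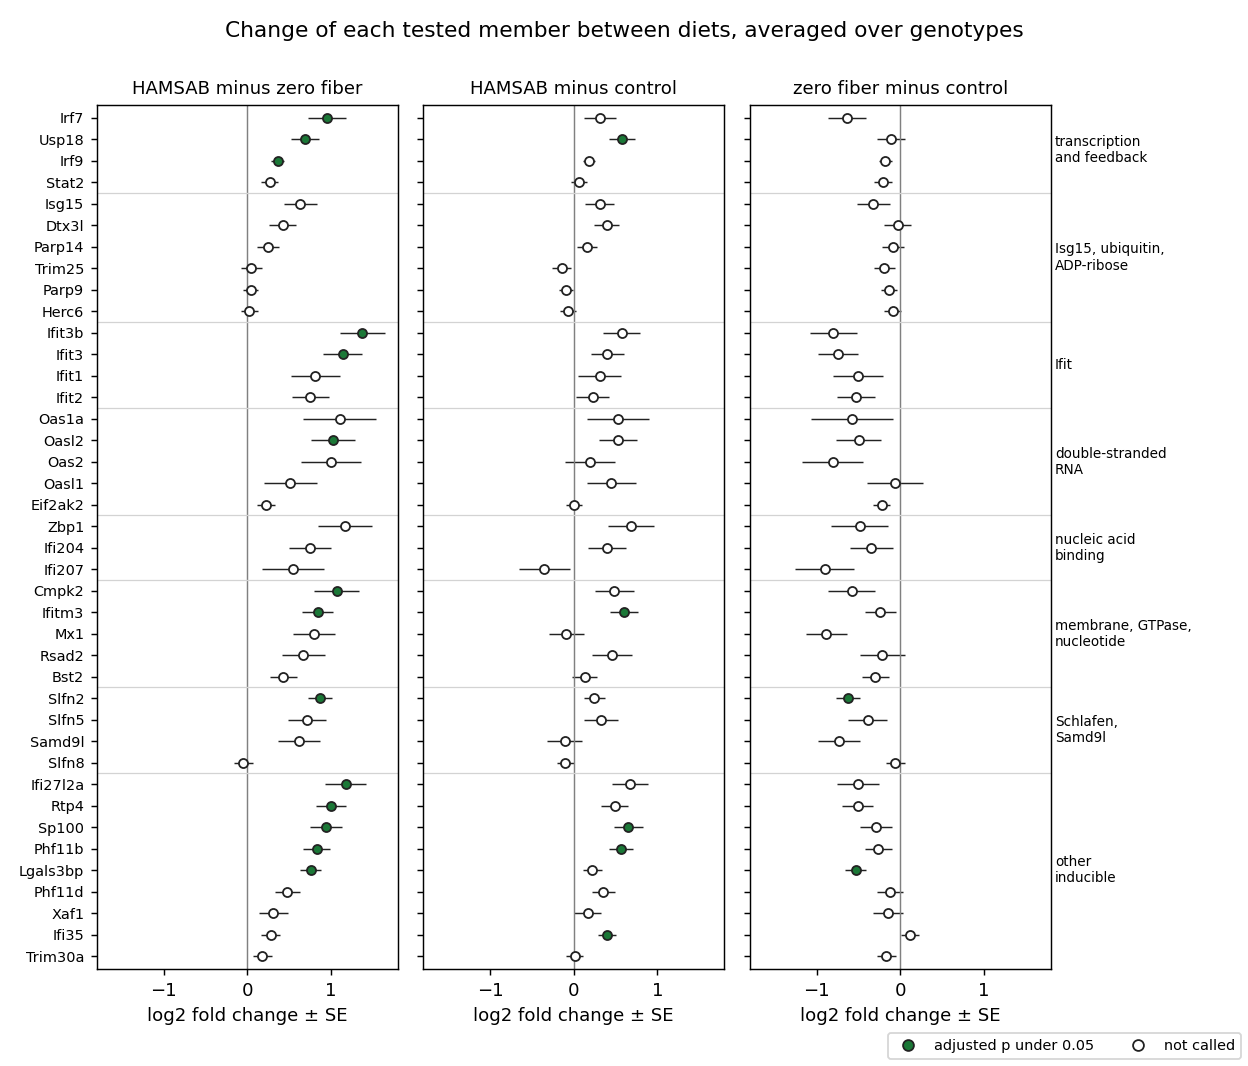
Log2 fold change with its standard error (horizontal axes) for each of the 40 tested members, by role, between the 3 pairs of diets averaged over genotypes, with filled points for an adjusted p under 0.05. In the left panel 14 points are filled, all to the right of 0, in the middle panel 5, all to the right, and in the right panel 2, both to the left.

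Of the 4 genes of transcription and feedback, 3 rose on HAMSAB. Irf7, the factor that amplifies interferon output, ran from 7.98 to 19.5 CPM (median 11.8) on zero fiber and from 6.90 to 43.7 (median 24.1) on HAMSAB in WT, and from 0 to 18.9 (median 9.46) and from 13.4 to 47.1 (median 22.9) in AD. The medians were higher on HAMSAB in both genotypes and the ranges overlapped. Its log2 fold change was 0.95 ± 0.22 (SE, adjusted p = 0.0211 by edgeR). Irf9, the DNA-binding part of ISGF3, had a smaller estimate with a narrow error. Its medians were 96.8 CPM on zero fiber and 122 on HAMSAB in WT, and 81.8 and 115 in AD, a log2 change of 0.37 ± 0.08 (adjusted p = 0.00821 by edgeR). Usp18, the protease that removes Isg15 from proteins and restrains the receptor, rose by 0.69 ± 0.17 (adjusted p = 0.0259). Stat2, with an estimate of 0.27 ± 0.10, was not called (adjusted p = 0.24).

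None of the 6 genes around Isg15 was called in this average, with 6 estimates above 0 and a median of 0.15. Isg15, the ubiquitin-like modifier itself, had medians of 16.9 CPM on zero fiber and 18.9 on HAMSAB in WT, and of 12.9 and 26.8 in AD. Its estimate was 0.63 ± 0.20 (adjusted p = 0.115 by edgeR). Herc6, the ligase that attaches Isg15 in the mouse, Trim25, a ubiquitin ligase of the Rig-I pathway, and Parp9 were at 0.03, 0.05 and 0.04. Parp14, an ADP-ribosyltransferase, was at 0.25 ± 0.13. Dtx3l, the ligase partner of Parp9, is taken up with the genotypes.

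Both Ifit3 and Ifit3b rose, 2 of the 4 Ifit genes, which encode proteins that bind viral RNA and limit its translation. Ifit3 ran from 10.04 to 20.04 CPM (median 11.7) on zero fiber in WT and from 9.96 to 59.2 (median 25.9) on HAMSAB, and from 0 to 18.6 (median 8.76) and from 11.5 to 49.5 (median 25.9) in AD. Its log2 fold change was 1.14 ± 0.23 (adjusted p = 0.00635 by edgeR). Ifit3b had medians of 2.14 CPM on zero fiber and 4.41 on HAMSAB in WT, and of 1.99 and 6.86 in AD. At 1.38 ± 0.27 (adjusted p = 0.00411) it had the largest estimate of the 40. Ifit1 and Ifit2 had estimates of 0.81 ± 0.29 and 0.76 ± 0.23 and were not called (adjusted p = 0.194 and 0.0925). The 4 genes lie within chr19:34550694-34650009 (GRCm38), and Ifit3 and Ifit3b are near copies, so how the authors' counting divided reads between them is uncertain.

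Among the genes of the oligoadenylate synthetase family and Eif2ak2, Oasl2 rose and the other 4 were not called. Oasl2, an oligoadenylate synthetase-like protein, had medians of 12.1 and 16.6 CPM on zero fiber and HAMSAB in WT, and of 9.73 and 17.8 in AD, with a log2 change of 1.03 ± 0.26 (adjusted p = 0.0365 by edgeR). The call was lost with limma voom and in 16 of the 30 fits that left out 1 library. Oas1a and Oas2, at 1.11 ± 0.44 and 1.0 ± 0.36, were as large in estimate at group medians under 3 CPM. Eif2ak2, the kinase PKR, had an estimate of 0.23 ± 0.11 (adjusted p = 0.34). Of the 3 nucleic acid binders none was called. Zbp1, a sensor of Z-form nucleic acid that can trigger cell death, came nearest, with medians of 2.04 and 4.2 CPM in WT and 1.91 and 3.99 in AD on zero fiber and HAMSAB, and an estimate of 1.17 ± 0.32 (adjusted p = 0.0576).

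Ifitm3 and Cmpk2 rose among the 5 genes of membrane, GTPase and nucleotide function. Ifitm3 ran from 24.8 to 49.0 CPM (median 39.7) on zero fiber and from 44.4 to 94.2 (median 61.3) on HAMSAB in WT, and from 17.3 to 53.0 (median 34.4) and from 40.7 to 118 (median 77.2) in AD. The ranges overlapped in both genotypes, and the log2 change was 0.85 ± 0.19 (adjusted p = 0.0117 by edgeR). Cmpk2, a mitochondrial nucleotide kinase, rose by 1.07 ± 0.27 (adjusted p = 0.0329) from medians of 2.46 in WT and 1.91 CPM in AD. Its neighbour on chromosome 12, Rsad2, which encodes viperin, was at 0.67 ± 0.26 and was not called. Mx1, an antiviral GTPase, and Bst2 were at 0.80 ± 0.25 and 0.43 ± 0.16, also not called.

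Slfn2 had the smallest p of all members. In WT it ran from 56.7 to 68.6 CPM (median 63.1) on zero fiber and from 77.4 to 209 (median 115) on HAMSAB, with no overlap. In AD the ranges were 38.5 to 81.7 (median 68.4) and 79.0 to 195 (median 112), with the ends overlapping. Its log2 fold change was 0.87 ± 0.14 (adjusted p = 0.000294 by edgeR). Slfn2 was the 1 member of 40 whose lowest HAMSAB library in WT lay above the highest on zero fiber, a separation met by 0.446% of all genes tested. With all libraries as labelled, no member was so separated in AD, against 0.0908% of all genes. The highest zero fiber AD value of Slfn2, 81.7 CPM, was that of the doubted zero fiber AD F replicate 1. The next, 77.9 in zero fiber AD M replicate 4, lay below the HAMSAB AD lowest of 79.0. The share of all genes without the doubted libraries was not computed. Slfn8, its neighbour on chromosome 11, was the 1 member with an estimate below 0, at -0.05 ± 0.11. Slfn5 and Samd9l had estimates of 0.72 ± 0.23 and 0.62 ± 0.25 and were not called.

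Of the other inducible genes, 5 of the 9 tested rose. Lgals3bp ran from 187 to 293 CPM (median 231) on zero fiber and from 257 to 517 (median 335) on HAMSAB in WT, and from 163 to 257 (median 205) and from 212 to 604 (median 392) in AD. The ranges overlapped at their ends, and the log2 change was 0.76 ± 0.12 (adjusted p = 0.000294 by edgeR). Rtp4, a Golgi chaperone of receptors that interferon induces, had medians of 46.2 and 87.5 CPM in WT and 43.2 and 84.5 in AD on zero fiber and HAMSAB. The log2 change of Rtp4 was 1.0 ± 0.18 (adjusted p = 0.00168). The nuclear body protein Sp100 had medians of 13.9 and 21.2 CPM in WT and 11 and 27.3 in AD, a log2 change of 0.94 ± 0.19 (adjusted p = 0.00504). Phf11b, of a family of zinc-finger genes on chromosome 14, had medians of 17.1 and 28.1 CPM in WT and 13.7 and 25.4 in AD (0.83 ± 0.16, adjusted p = 0.0028). Ifi27l2a, a small membrane protein of mitochondria, had medians of 11.6 and 20.8 CPM in WT and 8.93 and 34.2 in AD (1.18 ± 0.24, adjusted p = 0.00671). Phf11d, Xaf1, Ifi35 and Trim30a had estimates from 0.18 to 0.48 and were not called.

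**Figure D3:**
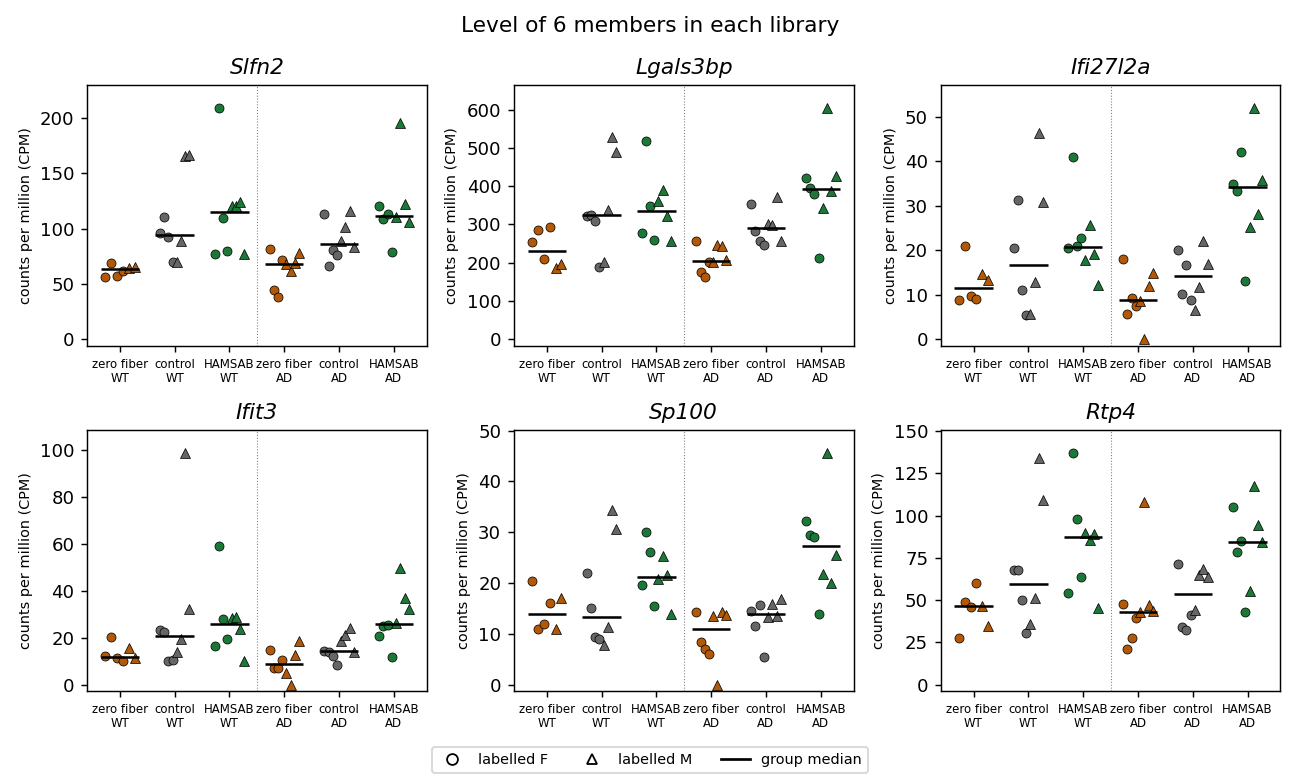
CPM (vertical axes) of 6 members in each library by diet and genotype, with circles for libraries labelled F, triangles for M and bars at the group medians. Slfn2 in WT shows no overlap between zero fiber (highest 68.6) and HAMSAB (lowest 77.4), while the control libraries of WT span most of the scale, up to 98.5 for Ifit3.

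Members that rose were found with and without the promoter motif. Of the 15 tested members with a match to the paired GAAA, 4 were called (Ifit3, Ifit3b, Ifitm3 and Phf11b) and the median estimate was 0.67. Of the 16 tested members with a window and no match, 7 were called (Irf7, Irf9, Oasl2, Cmpk2, Slfn2, Lgals3bp and Sp100) and the median was 0.57. The other 9, with no window, held 3 called members.

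Within AD mice, 5 members rose on HAMSAB against zero fiber (Lgals3bp, Sp100, Ifi27l2a, Slfn2 and Phf11b), where 0.239% of all genes were called. Estimates were above 0 for 38 of 40 and the median was 0.69. Ifi27l2a was at 1.55 ± 0.33 (adjusted p = 0.0213 by edgeR), Sp100 at 1.29 ± 0.26 (adjusted p = 0.0105) and Lgals3bp at 0.91 ± 0.17 (adjusted p = 0.00384). Lgals3bp was called in each of 16 fits that left out 1 library and Phf11b in 3. Without HAMSAB AD M replicate 2, 1 member was called. Leaving out zero fiber AD M replicate 1, zero fiber AD F replicate 2 or 3, or HAMSAB AD F replicate 1 or 3 left 2 called, and leaving out zero fiber AD M replicate 4 left 3. Without the 2 doubted libraries 6 members were called, with a median of 0.85. Within WT mice 3 members rose, Slfn2 (0.87 ± 0.21, adjusted p = 0.0172), Dtx3l (1.0 ± 0.24, adjusted p = 0.0192) and Rtp4 (0.96 ± 0.27, adjusted p = 0.0457), where 2.19% of all genes were called. In WT 37 of 40 estimates were above 0 and the median was 0.71. Without zero fiber WT M replicate 1 or without replicate 2, which are the 2 libraries labelled M in that group, 0 were called by edgeR. Without HAMSAB WT F replicate 2, 1 was called, without HAMSAB WT F replicate 4, 5, and without HAMSAB WT M replicate 4, 6. Estimates were above 0 in both genotypes for 36 of the 40. Slfn8 was below 0 in both, Dtx3l in AD, and Herc6 and Trim25 in WT.

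Titles carry numbers that fall into a lower run (below 2900, 23 libraries) and a higher run (22 libraries). The title of 1 library, HAMSAB AD F replicate 4, carries 000, outside both. That library had the lowest score of HAMSAB AD (4.09) and is in neither of the within-run values below. What the numbers stand for is not stated. The difference in mean score between HAMSAB and zero fiber was 0.86 in AD, 1.12 within the lower run and 0.71 within the higher. Without the 2 doubted libraries, both in the lower run, it was 0.73 in AD and 0.80 within that run. In WT it was 0.52, 0.60 and 0.42. With a term for the run, 14 members were again called in the average over genotypes. The term gave the 000 library a level of its own, so every fit with it also set that library aside.

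Against the control diet, averaged over genotypes, 5 members rose on HAMSAB (Phf11b, Sp100, Ifi35, Usp18 and Ifitm3) and none fell, against 4.52% of all genes called. Estimates were above 0 for 33 of 40, against 50.5% of all genes, with a median of 0.31, or 0.17 without HAMSAB WT F replicate 2. The neuron marker Syt1 rose in the same comparison. Phf11b was at 0.57 ± 0.14 (adjusted p = 0.0156 by edgeR), with control medians of 16 CPM in WT and 16.5 in AD beside 28.1 and 25.4 on HAMSAB. Sp100 was at 0.65 ± 0.17 (adjusted p = 0.0186), Usp18 at 0.58 ± 0.15 (adjusted p = 0.0208) and Ifitm3 at 0.61 ± 0.17 (adjusted p = 0.0281). Ifi35, which binds other interferon-induced proteins, had control medians of 54.8 CPM in WT and 49.0 in AD and HAMSAB medians of 61.7 and 67.3, a log2 change of 0.40 ± 0.10 (adjusted p = 0.0205). Its change between HAMSAB and zero fiber was smaller, at 0.28 ± 0.11, and not called. With a term for the title run 3 members were called. Without control WT M replicate 3, the highest library of its group, 9 were.

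By genotype, no member passed in either comparison of HAMSAB with control. In AD 20 of the 40 had an unadjusted p under 0.05, against 15.3% of all genes, 37 estimates were above 0 and the median was 0.44, with 0.0743% of all genes called by edgeR. Sp100 (1.03 ± 0.24, adjusted p = 0.0541), Ifitm3 (1.01 ± 0.24, adjusted p = 0.0541) and Ifi27l2a (1.24 ± 0.30, adjusted p = 0.0556) came nearest. DESeq2 called 3 members and limma voom 1. Without control AD F replicate 3, 4 members were called, without HAMSAB AD F replicate 4, 3, without HAMSAB AD F replicate 2, 2, and without control AD M replicate 4, 1. In WT 6 had an unadjusted p under 0.05, against 13.3% of all genes, 25 estimates were above 0 and the median was 0.10, with 0.281% of all genes called. DESeq2 and limma voom called 0 there. The WT median was -0.13 without HAMSAB WT F replicate 2, -0.03 without control WT F replicate 4, and 0.32 without control WT M replicate 3. It turned to -0.09 with a term for the title run, and the difference in mean score was 0.15 over all libraries, 0.27 in the lower run (1 control library) and -0.09 in the higher. Dtx3l (0.52 ± 0.21), Ifi35 (0.34 ± 0.15) and Parp9 (-0.27 ± 0.12) had the smallest p in WT.

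On zero fiber against control, averaged over genotypes, 2 members fell, Slfn2 by 0.62 ± 0.14 (adjusted p = 0.0293 by edgeR) and Lgals3bp by 0.54 ± 0.12 (adjusted p = 0.0297), against 0.363% of all genes called. The control medians of Slfn2 were 94.1 CPM in WT and 86.2 in AD, and those of Lgals3bp 324 and 290. Of 40 estimates 1 was above 0, against 47.9% of all genes, and the median was -0.31. The 4 tested erythroid markers and Syt1 were higher on zero fiber in the same comparison. Mx1 followed at -0.88 ± 0.25 (adjusted p = 0.0855). Both calls were lost in 9 of 30 fits without 1 library: zero fiber WT M replicate 1 or 2, zero fiber WT F replicate 3, zero fiber AD M replicate 1, zero fiber AD F replicate 3, control AD F replicate 1, control AD M replicate 3, control WT F replicate 2 or control WT M replicate 3. Without zero fiber AD M replicate 3, control AD F replicate 2 or control AD M replicate 1, 1 was called. In AD alone none was called (3 with an unadjusted p under 0.05, against 10.8% of all genes, median -0.23, 0.0578% of all genes called). Without zero fiber AD F replicate 2 or 3 that median was -0.15 or -0.14. In AD the difference in mean score was -0.43, and -0.30 without the 2 doubted libraries. The smallest p belonged to Lgals3bp (-0.49 ± 0.17), Slfn2 (-0.48 ± 0.19) and Irf9 (-0.22 ± 0.11). In WT alone none was called either (14 with an unadjusted p under 0.05, against 7.58% of all genes, median -0.47, 0.00825% of all genes called), led by Slfn2 (-0.77 ± 0.21), Mx1 (-1.28 ± 0.36) and Ifit3b (-1.38 ± 0.42). The WT median was -0.28 without control WT M replicate 3, -0.71 with a term for the title run and -0.31 with limma voom. DESeq2 and limma voom called 0 in both. These 3 pairs of diets share libraries, so their estimates are not independent of each other.

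Between the genotypes 1 member passed the test, on 1 diet. On zero fiber no member was called by edgeR and none had an unadjusted p under 0.05, against 4.70% of all genes (median -0.01, 0.00825% of all genes called). That median ran from -0.14 to 0.03 over the fits without 1 library, the ends being those without zero fiber AD F replicate 1 and replicate 3, and was -0.13 without both doubted libraries. The smallest p belonged to Trim25 (-0.37 ± 0.19), Dtx3l (0.39 ± 0.24) and Herc6 (-0.20 ± 0.15). On the control diet 0 were called and 7 had an unadjusted p under 0.05, against 5.40% of all genes, with 38 of 40 estimates below 0 and a median of -0.33 (-0.16 without control WT M replicate 3 and -0.18 with limma voom), while 0% of all genes were called. Oas1a (-1.81 ± 0.56), Ifit3 (-0.80 ± 0.29) and Dtx3l (-0.50 ± 0.21) led that comparison, in which control WT M replicate 3 held the highest library of Oas1a at 13.4 CPM and of Ifit3 at 98.5. Averaged over diets 0 were called and 3 had an unadjusted p under 0.05, against 7.28% of all genes (median -0.10, or -0.05 without control WT M replicate 3 and -0.06 without HAMSAB WT F replicate 2, 0.0165% of all genes called), led by Trim25 (-0.23 ± 0.10), Dtx3l (-0.28 ± 0.13) and Oasl2 (-0.42 ± 0.21). DESeq2 and limma voom called 0 in these 3 comparisons.

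Dtx3l was the 1 member of 40 called between genotypes, and only on HAMSAB. That is 2.5% of the members, near the share of all genes called there (1.68%). In WT Dtx3l ran from 69.2 to 151 CPM (median 88.4) on zero fiber, from 67.7 to 187 (median 122) on control and from 123 to 263 (median 193) on HAMSAB. In AD the ranges were 76.4 to 233 (median 104), 64.5 to 138 (median 87.9) and 63.2 to 166 (median 101). HAMSAB WT libraries were the highest as a group, and those of AD lay among the other diets. On HAMSAB it was lower in AD than in WT by edgeR (-0.75 ± 0.21, adjusted p = 0.0462), where 1.68% of all genes were called. That call was lost with a term for the title run and in 11 of 16 fits without 1 library, being kept without HAMSAB AD M replicate 1 or 3, HAMSAB WT F replicate 3 or 4 or HAMSAB WT M replicate 4. Trim30a (0.39 ± 0.15, adjusted p = 0.191) and Bst2 (0.39 ± 0.21, adjusted p = 0.465) were next, and not called. Parp9, which lies beside Dtx3l on chromosome 16 and is transcribed from the other strand, had group medians from 53.6 to 62.5 CPM. The annotated bodies of Dtx3l (chr16:35926511-35939151) and Parp9 (chr16:35938470-35972605) overlap at their starts. Whether the counting used strand is not given in the sources used here.

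Whether the diet difference itself differed between genotypes was tested as an interaction. For HAMSAB against zero fiber no member was called, with 2 at an unadjusted p under 0.05, against 9.46% of all genes, and 1.08% of all genes called. Dtx3l came nearest, its difference being smaller in AD by 1.15 ± 0.32 on the log2 scale (adjusted p = 0.0665 by edgeR), followed by Bst2 (0.65 ± 0.32) and Sp100 (0.70 ± 0.38). DESeq2 called 0 and limma voom 1, and Dtx3l was called in 8 of 30 fits without 1 library. For HAMSAB against control 0 were called by edgeR, 9 had an unadjusted p under 0.05, against 5.53% of all genes, and 34 of 40 estimates were above 0 (median 0.38, 0% of all genes called). That median was 0.58 with a term for the title run, 0.22 with limma voom and 0.24 without control WT M replicate 3. The smallest p belonged to Trim30a (0.59 ± 0.21), Oas1a (2.11 ± 0.74) and Ifi27l2a (1.14 ± 0.43). For zero fiber against control 0 were called and 3 had an unadjusted p under 0.05, against 6.17% of all genes (median 0.27, 0% of all genes called), led by Oas1a (2.78 ± 0.95), Dtx3l (0.89 ± 0.32) and Ifit3b (1.15 ± 0.57). The median of the last was 0.46 with a term for the title run, 0.12 with limma voom or without control WT M replicate 3, and 0.16 without zero fiber AD F replicate 1 or without both doubted libraries. DESeq2 and limma voom called 0 in the last 2.

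**Figure D4:**
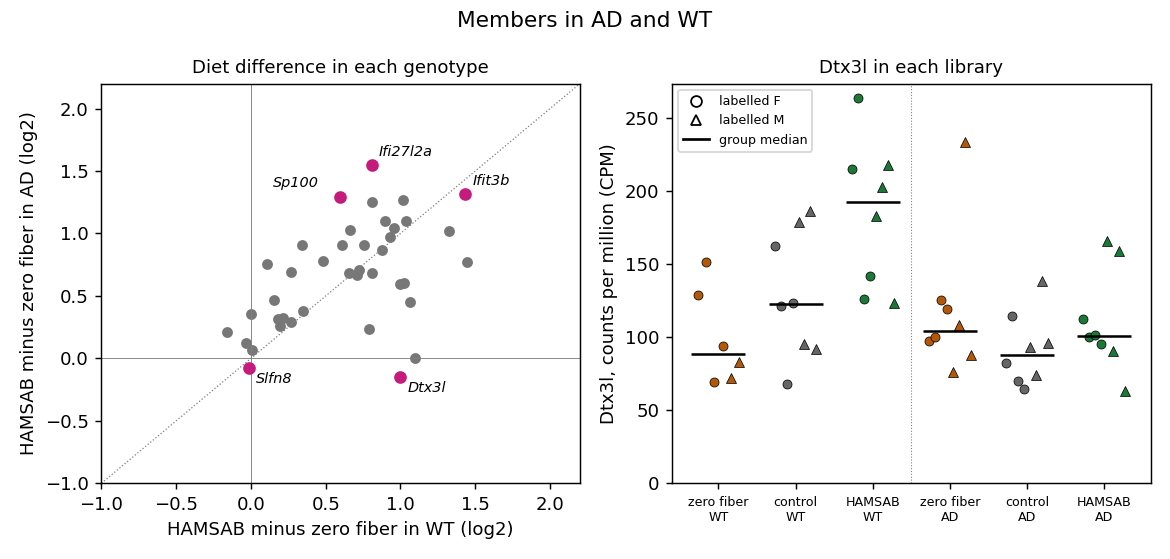
Left, log2 fold change of HAMSAB against zero fiber in WT (horizontal) and AD (vertical) for the 40 tested members, with a dotted line of equality and 5 members named. Right, CPM of Dtx3l in each library, where HAMSAB WT (median 193) stands above HAMSAB AD (median 101).

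Between the sexes as labelled, no member was called by edgeR or DESeq2 and 1 by limma voom, where 0.124% of all genes were called by edgeR. Estimates were lower in libraries labelled F for 38 of 40 members, against 48.2% of all genes, with a median of -0.23, and 19 had an unadjusted p under 0.05, against 10.5% of all genes. Ifit2 (-0.68 ± 0.18, adjusted p = 0.132), Ifit1 (-0.89 ± 0.23, adjusted p = 0.132) and Rsad2 (-0.76 ± 0.21, adjusted p = 0.141) had the smallest p. Without the 2 doubted libraries, 1 of which is labelled F against its sex genes, the median was -0.26 and 0 were called. Without HAMSAB WT F replicate 2, 1 member (Ifit1) was called. The labelled sexes were not evenly spread over the runs of title numbers, so sex and run partly coincide. For example, all HAMSAB AD libraries labelled M lay in the lower run.

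Single libraries carried much of the spread, and many members were high in the same libraries. Control WT M replicate 3 held its group's highest value for 33 of the 40 members (82.5%), against 13.9% of all genes tested. HAMSAB WT F replicate 2 did so for 34 (against 11.4%) and HAMSAB AD M replicate 2 for 32 (against 14.7%). The same 24 members were highest in all 3 of these libraries, among them Irf7, Stat2, all 4 Ifit genes, Mx1, Rsad2 and Oasl2. In control WT M replicate 3 the median ratio of a member to the median of the other 7 libraries was 2.46, and Ifit1 was 9.25 times it. Ifi35 was highest in none of the 3. At the other end, HAMSAB AD F replicate 4, the library titled 000, held the lowest value for 27 members (against 11.2% of all genes). Control WT F replicate 4 did so for 17 (against 9.41%). Zero fiber AD M replicate 2 held the lowest for 24, which is near its share over all genes (59.0%). The summed monocyte markers stood at 26.2 CPM in control WT M replicate 3 and at 21.4 in HAMSAB WT F replicate 2, each the highest of its group. In HAMSAB AD M replicate 2 they stood at 11.3, where the highest of the group was 16.2. Their part in the result was not tested.

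**Figure D5:**
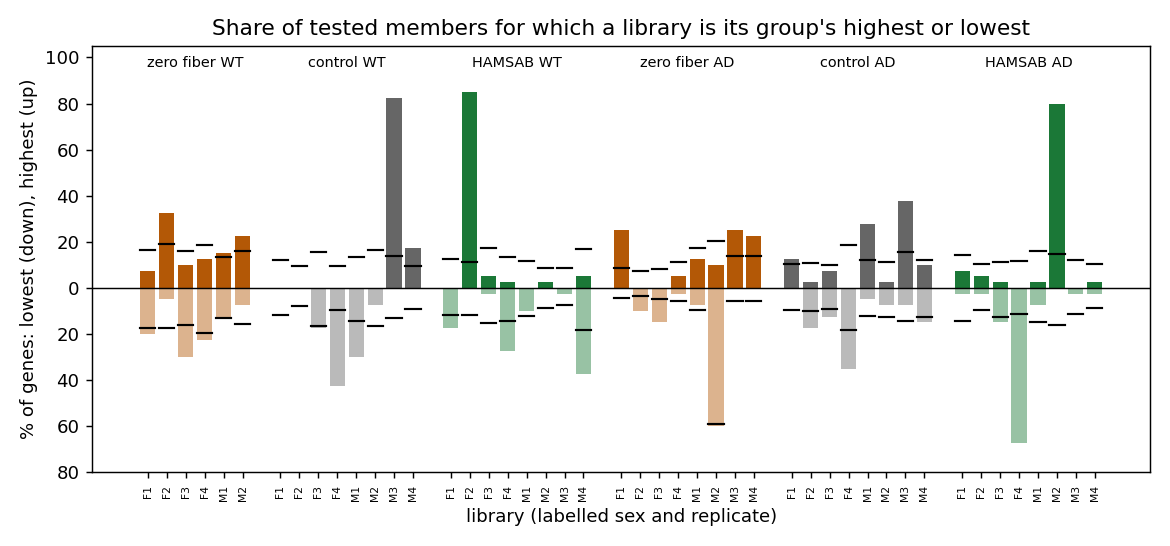
Share of the 40 tested members (vertical axis, percent) for which a library is the highest (bars upward) or lowest (pale bars downward) of its diet and genotype, with black lines at the same share over all genes tested. Control WT M3 (82.5%), HAMSAB WT F2 (85.0%) and HAMSAB AD M2 (80.0%) stand far above their lines, and zero fiber AD M2 lies on its lower line.

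The other genes of the pathway were taken from lists of names. The 21 genes of interferon ligands were nearly silent: none passed the filter, Ifnb1 had 16 reads in 10 libraries, Ifnk 6, Ifna2 5 and Ifng 0 in all 46. For HAMSAB against zero fiber averaged over genotypes, none of 7 negative regulators and none of 11 nucleic acid sensors was called by edgeR, with medians of 0.03 and 0.08. Of 11 tested GTPases induced by interferon gamma, Igtp rose (0.42 ± 0.10, adjusted p = 0.0234). Of 31 further interferon-stimulated genes tested, 4 rose and 29 had estimates above 0 (median 0.27). These were Ms4a4c (1.25 ± 0.21, adjusted p = 0.000626), Tor3a (0.39 ± 0.08, adjusted p = 0.00907), Phf11a (1.48 ± 0.35, adjusted p = 0.0209) and Cd274, which encodes PD-L1 (0.87 ± 0.23, adjusted p = 0.0495). Reads were few: Phf11a had 14 in all on zero fiber in WT and 11 in AD, against 49 and 61 on HAMSAB. On zero fiber Cd274 had 50 and 43, and Ms4a4c 57 and 54. Within WT the receptor chains of interferon gamma rose on HAMSAB, Ifngr1 by 0.65 ± 0.17 and Ifngr2 by 0.42 ± 0.12 (adjusted p = 0.0287 and 0.0469), where 2.19% of all genes were called. In AD they were not called, with medians of 1799 CPM on zero fiber and 2094 on HAMSAB for Ifngr1 and of 371 and 356 for Ifngr2, and the difference between genotypes was called for neither.

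Markers of the labelled cell type were high. The 10 microglia markers summed to between 25974 and 42097 CPM in every library, none was at 0 in a group, and P2ry12 and Tmem119 differed by 0.04 ± 0.08 and -0.02 ± 0.08 between HAMSAB and zero fiber. Markers of other cells summed to far less, and some moved with diet. The 7 perivascular macrophage markers had medians of 64.9 and 49.7 CPM on zero fiber and HAMSAB in WT, and of 62.9 and 33.9 in AD, and the 1 of 7 called was Mrc1, which fell by 1.0 ± 0.26 (adjusted p = 0.0392). The 6 monocyte markers had summed medians from 8.53 to 12.6 CPM in the 6 groups, and Ccr2 was at -0.12 ± 0.34 between these diets. Of 6 neutrophil markers, Ngp fell by 4.08 ± 1.05 (adjusted p = 0.0436), with a summed median of 5.25 CPM on zero fiber in WT and of 0.299 or less in the other 5 groups. The 8 lymphocyte markers had summed medians from 53.0 to 60.9 CPM, with 2 to 5 of the 8 at 0 in each group, and Cd3e at 0 in 4 of the 6. The 6 astrocyte markers summed to 155 to 382 CPM per library, and group medians ran from 184 to 218 CPM for 6 oligodendrocyte markers, from 47.4 to 100.3 for 6 endothelial markers and from 6.12 to 12.5 for 6 neuron markers. Dendritic cell markers, 6 in number, had medians from 18.4 to 23.1 CPM. Erythroid markers had medians of 121 and 34.6 CPM on zero fiber and HAMSAB in WT and of 132 and 16.5 in AD, and 4 of 4 tested fell, Hbb-bs by 2.37 ± 0.45 (adjusted p = 0.0029). Between zero fiber and control the same 4 erythroid genes were higher on zero fiber, Hbb-bs at 2.63 ± 0.47 (adjusted p = 0.00262). The neuron marker Syt1 was above control both on HAMSAB (1.83 ± 0.44, adjusted p = 0.0125) and on zero fiber (2.02 ± 0.44, adjusted p = 0.0232). No other marker of these lists was called in the 3 averages. The part of these cells in the members' differences was not tested. In RNA of a cell pool, fewer cells of a type and less RNA per cell cannot be told apart.

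Several members lie near each other in the genome (GRCm38 coordinates), and near copies share reads in ways the deposited counts do not show. Besides the Ifit cluster, Slfn5, Slfn8 and Slfn2 lie within chr11:82951349-83070678, Rsad2 and Cmpk2 within chr12:26442746-26479837, Phf11b and Phf11d within chr14:59320964-59365470, and Parp14, Dtx3l and Parp9 within chr16:35832874-35972605. Oasl2 and Oasl1, Oas2 and Oas1a, Ifi207 and Ifi204, and Ifitm3 and Irf7 form 4 further neighbourhoods. The annotated body of Ifitm3 reaches up to chr7:141010770 and that of Irf7 lies from chr7:141262706 upward, both on the minus strand. This pair is thus near but not side by side. Some neighbours had unlike estimates for HAMSAB against zero fiber, such as Slfn2 at 0.87 and Slfn8 at -0.05, and others like ones, such as Ifitm3 at 0.85 and Irf7 at 0.95. These differences between neighbours were not tested. Values of the Ifit3 pair, the Oasl pair, the Phf11 genes, Ifi204 with Ifi207 and the Schlafen genes are uncertain to the extent that reads were divided between copies.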

How the data were processed

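The members and the gene lists were chosen with earlier results of these data known. The deposited table holds raw counts of reads for each gene and library, made by the authors with STAR 2.5.2b and featureCounts 1.5.2 on mm10 (GRCm38), per the submitters' processing notes; strand setting, multi-mapping rule and annotation were not found there. Whole-number counts per library were used as deposited. Library totals ran from 52114 to 6950429, so 1 read was worth more CPM in the shallow libraries. Groups came from the diet, genotype and sex labels.

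In R 4.3.3, edgeR 4.0.16 filtered low counts (filterByExpr over 12 groups by diet, genotype and sex), scaled by TMM and fitted 12 group means to all 46 libraries. Contrasts gave the sexes equal weight and were tested by the quasi-likelihood F test, with Benjamini-Hochberg adjustment over 12121 genes. A gene was called at an adjusted p under 0.05. Standard errors are the fold change over the root of F. CPM values used TMM sizes, and the score used a prior count of 2. All members may be named; each comparison names its called members (up to 10 in full) or else those of smallest p up to 3. Scripts were tested on simulated data. Alternatives were DESeq2 1.42.0 and its size factors, limma 3.58.1 voom, no filter, a term for the run of title numbers, the compared groups alone and leaving out each library. Leaving out the 2 doubted libraries was added after seeing the data. Gene positions are GENCODE M21 (GRCm38). One result on a gene outside the members is not reported here.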

Additional observations from a re-analysis of the deposited data

Results flagged for a closer look

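The score and the 16 members called in any comparison were examined in the 6 groups by diet and genotype, 102 cases in all, and in 14 (13.7%) 1 library stood apart from the rest by the gap to its neighbour over the group's range. The cut-offs flag about 5% of cases where values are normally distributed, which CPM values need not be. Members of 1 library are also not independent, so the 2 shares cannot be compared strictly. Zero fiber AD M replicate 2, with 52114 reads, was the lowest for the score (2.61, the next being 3.67) and for Ifi35 (15.45 CPM, next 51.3), and the highest for Rtp4 (108 CPM, next 47.7). In that library Ifi35 had 1 read and Rtp4 had 7. HAMSAB AD M replicate 2 was the highest for Slfn2 (195 CPM, next 122) and Irf7 (47.1 CPM, next 25.75). HAMSAB WT F replicate 2 was the highest for Slfn2 (209 CPM, next 124), Ifit3 (59.2 CPM, next 28.8) and Ifi27l2a (41 CPM, next 25.6). Control WT M replicate 3 was the highest for Ifit3 (98.5 CPM, next 32.2) and Ifit3b (11.8 CPM, next 6.25). The other cases were Dtx3l in zero fiber AD M replicate 3 (233 CPM, next 125), Irf7 in zero fiber WT F replicate 2 (19.5 CPM, next 12.25), Ifit3b in control AD M replicate 3 (7.53 CPM, next 3.70) and Ifi35 in HAMSAB WT F replicate 3 (123.5 CPM, next 75.55).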

How the results depend on the processing

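The number of members called for HAMSAB against zero fiber averaged over genotypes was 14 or 15 under the other settings except 1, with 9 to 15 when 1 library was left out. With no filter on low counts more members were called, and the cause was not tested: 25 in that comparison, 16 in AD and 17 in WT. Without the filter HAMSAB against control gave 13 averaged, 16 in AD and 1 in WT, and zero fiber against control 10 averaged, 2 in AD and 9 in WT. AD against WT gave 7 on control, 4 on HAMSAB and 2 averaged, the differences between genotypes 2, 3 and 1, and female against male 8. With a term for the title run, HAMSAB against control gave 2 in AD and 3 averaged, HAMSAB against zero fiber in WT 5, AD against WT on HAMSAB 0 and the genotype difference for HAMSAB against zero fiber 1 (the cause was not tested). HAMSAB against control in AD gave 3 with DESeq2, 1 with limma voom, 5 with the compared groups alone and 1 without the 2 doubted libraries. Limma voom gave 1 for the genotype difference in HAMSAB against zero fiber and 1 for sex, and the compared groups alone gave 5 for HAMSAB against zero fiber in WT. Leaving out 1 library gave 1 to 7 for HAMSAB against zero fiber in AD, 0 to 6 in WT, 0 to 4 for HAMSAB against control in AD, 4 to 9 averaged, 0 to 2 for zero fiber against control averaged, and 0 to 1 for AD against WT on HAMSAB, for the genotype difference in HAMSAB against zero fiber and for sex. Arms left with 1 library were assumed to vary like the other groups. No paired analysis was possible because replicate numbers were given in accession order and pair no libraries.

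Depth limits the members of lowest level: Ifi44, Oas1a, Oas2, Oasl1, Zbp1, Ifi207, Samd9l, Ifit3b and Cmpk2 had a mean under 5 CPM, where a few reads decide a value.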
